A study of Mus musculus with 4 samples.

Results

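Htr7, which encodes a serotonin receptor, and the 3 genes Kif20b, Rpp30 and Ankrd1 beside it on mouse chromosome 19 were followed through an allele-specific RNA-seq dataset of epiblast stem cells (EpiSCs). They are 4 of the 22686 genes of the table, all on chromosome 19, which has 746 entries. Htr7 was picked from these same measurements, because its reads were assigned to the paternal allele in Smchd1 +/+ cells and were missing in Smchd1 MD1/MD1 cells. Its values in that contrast are therefore a description and carry no test. The other 3 genes were picked by position, with earlier results of these data known.

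EpiSCs are pluripotent cells taken from the epiblast and kept in a primed state. Here they came from female embryos at E6.5, and every line carried an Xist mutation, either XistdeltaA/+ or Xist1lox/+, on top of Smchd1 +/+ or MD1/MD1. There were 4 libraries, 1 for each combined genotype. No control without an Xist mutation is part of the series, and the labels do not say how many embryos or lines a library stands for, so a difference within 1 Xist background has no replicate to check it. The strain label of all 4 is a cross of C57BL6/J, written first, with an F1 of JF1 and C57BL6/J. As background, an F1 parent passes on chromosomes that are mosaics of its 2 strains, so a stretch may carry either the JF1 or the C57BL6/J copy. The labels do not say which variant was read as paternal, and taking the parent written first as the mother is an assumption. Where it carries the C57BL6/J copy, both alleles look alike and all reads have the same variant. Reads without the paternal variant are called of maternal type below.

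Allele-assigned reads, which cover a strain variant, summed to between 7301034 and 8008500 per library. The paternal share is the fraction of a gene's allele-assigned reads that carry the paternal variant. Total expression is given as FPKM, which is per length and so allows levels of different genes to be set side by side. Intervals of shares are exact Clopper-Pearson intervals at 95%, and a count of 0 is given with the limit that 3 counts set. Intervals and limits cover counting error only. Epiblast genes were expressed in all 4 libraries, with Pou5f1 between 551 and 984 FPKM and Dnmt3b between 144 and 320. Markers of other cell types differed between the libraries. The 8 fibroblast markers summed to 43.1 and 120 FPKM in the XistdeltaA/+ pair and to 56.6 and 57.9 in the Xist1lox/+ pair, none of them at 0. The 6 macrophage markers summed to 23.8 and 869, then to 307 and 278, with Ptprc, the pan-leukocyte marker, between 0.0406 and 0.940. Of these sums Lyz2 alone made 0.384 and 799, then 274 and 247, and Cd68 made 21.7 and 34.6, then 19.3 and 18.1. In such bulk samples a change in the share of a cell type and a change in RNA per cell cannot be told apart.

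The serotonin receptor made by Htr7 couples to the stimulatory G protein and raises cyclic AMP, and it is best known from neurons and smooth muscle. Rpp30 is a protein subunit shared by RNase P, which trims the leader of precursor tRNAs, and by RNase MRP, which acts on ribosomal RNA. Ankrd1 is an ankyrin repeat protein of the nucleus and the muscle sarcomere, induced by stretch and known as a target of the YAP and TEAD transcription factors. Kif20b is a kinesin motor that acts in cytokinesis.

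On mm9 the genes lie in the order Kif20b (34996848 to 35050221, plus strand), Htr7 (36033219 to 36131850, minus strand), Rpp30 (36158206 to 36179263, plus strand) and Ankrd1 (36186455 to 36194334, minus strand). Htr7 and Rpp30 are transcribed away from each other, and 26.4 kb separate their starts. Rpp30 and Ankrd1 converge with 7.19 kb between their ends. Kif20b lies 983 kb away on the other side, past a stretch with 0 further genes of the table. The RefSeq annotation of GRCm38.p6 lists 7 genes in that stretch, of which 3 are lncRNAs, 2 are pseudogenes and 2 are snoRNAs, and none of them is measured here.

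Htr7 was expressed in both +/+ libraries and was at or near zero in MD1/MD1 cells. The FPKM of Htr7 was 32.8 in +/+ XistdeltaA/+ and 32.7 in +/+ Xist1lox/+. With MD1/MD1 the table lists it at 0 for XistdeltaA/+ and at 0.0185 for Xist1lox/+. The level in +/+ was not marginal, since only 2721 and 2742 of the 11471 genes that averaged 1 FPKM or more stood above it. The groups did not overlap, which the choice of Htr7 sets, and the 2 libraries of each genotype gave nearly the same value. Of the 11471 genes 18.9% were lower in MD1/MD1 without overlap.

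The reads of Htr7 in +/+ carried the paternal variant. All 4 libraries share 1 strain label, so parent of origin and strain of the allele cannot be told apart. All 1075 allele-assigned reads were paternal in +/+ XistdeltaA/+, and a count of 0 maternal reads allows a maternal share of up to 0.279%. In +/+ Xist1lox/+ 1214 of 1215 reads were paternal, a share of 99.9% (99.54 to 99.998). Both MD1/MD1 libraries had 0 allele-assigned reads of Htr7. Against a floor of 3 reads per library, scaled to the reads of the library, Htr7 was at least 367-fold lower in MD1/MD1 with XistdeltaA/+ and at least 378-fold lower with Xist1lox/+. On the log2(FPKM + 1) scale, where 1 is added before taking logarithms, the ratios were -5.08 and -5.05.

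Values were alike in both Xist backgrounds, with a mean log2 difference of Xist1lox/+ from XistdeltaA/+ of 0.0094. All 4 libraries entered the choice of Htr7, so this likeness is a description too and carries no test.

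**Figure D1:**
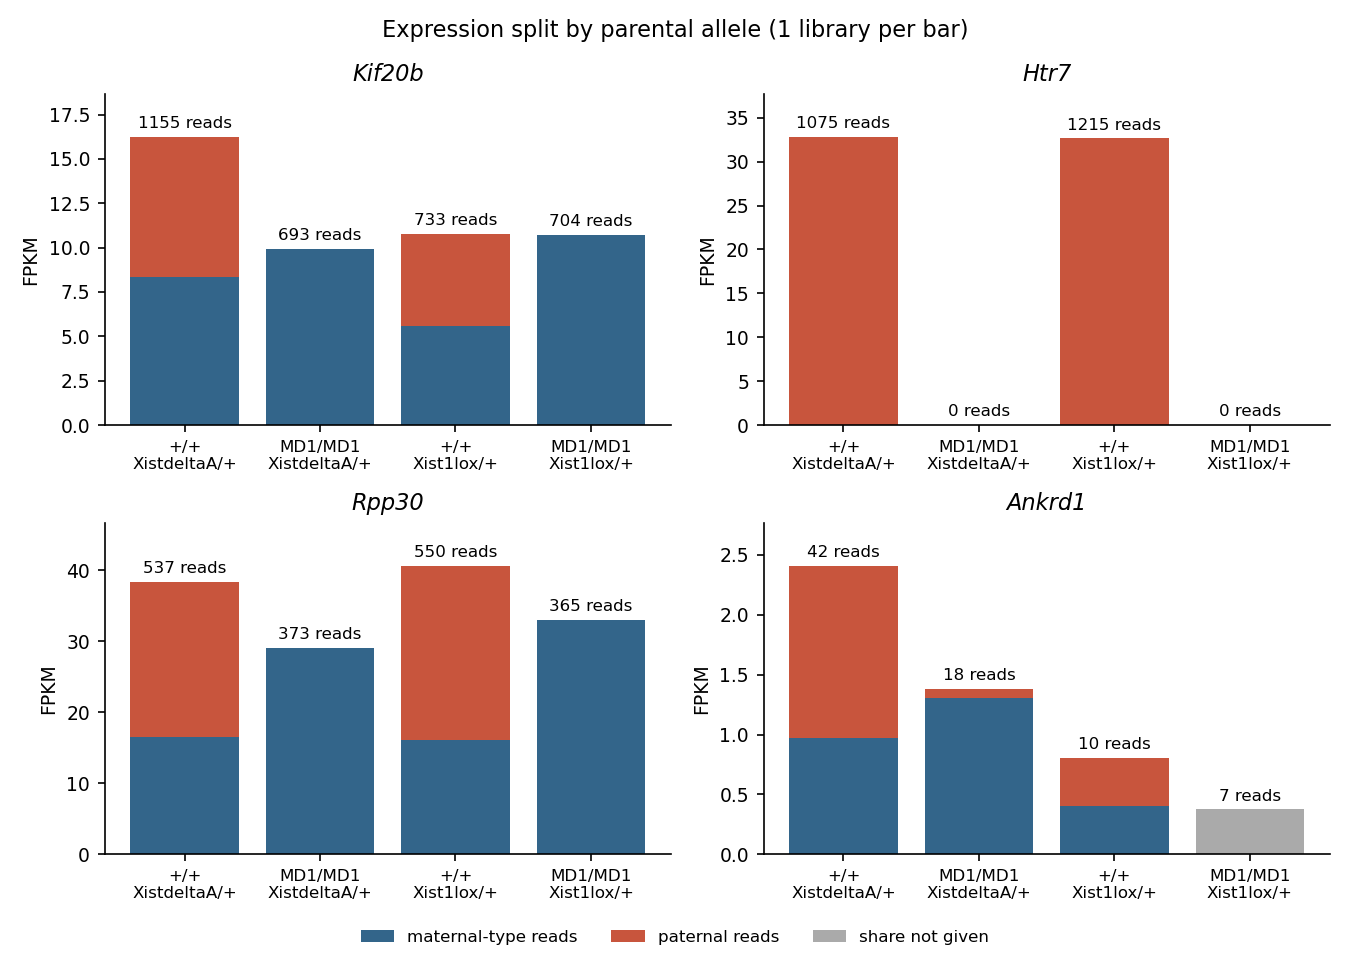
Each bar is the FPKM of 1 library, split by the share of paternal (red) and maternal-type (blue) allele-assigned reads, with the number of those reads above it; grey marks a library with too few reads for a share. Htr7 is all red at 32.8 and 32.7 FPKM in +/+ and is missing in MD1/MD1, while Kif20b and Rpp30 are split in +/+ and all or nearly all blue in MD1/MD1.

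The start region of Htr7 differs from that of its neighbour across the shared intergenic stretch. The 250 bases before the start of Htr7 and of Rpp30 are shown because these 2 starts face away from each other and only Rpp30 kept a level well above 0 in MD1/MD1. They are the C57BL/6J reference from RefSeq (GRCm38.p6), so they show no JF1 variant. Capitals mark each CG, the dinucleotide that can carry DNA methylation.

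Htr7 (minus strand, chr19:36057361-36057610): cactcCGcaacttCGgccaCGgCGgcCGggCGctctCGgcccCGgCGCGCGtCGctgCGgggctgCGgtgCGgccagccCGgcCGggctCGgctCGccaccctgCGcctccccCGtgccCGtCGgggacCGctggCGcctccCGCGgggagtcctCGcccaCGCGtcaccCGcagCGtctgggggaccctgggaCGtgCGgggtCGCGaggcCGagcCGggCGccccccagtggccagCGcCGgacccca
Rpp30 (plus strand, chr19:36083466-36083715): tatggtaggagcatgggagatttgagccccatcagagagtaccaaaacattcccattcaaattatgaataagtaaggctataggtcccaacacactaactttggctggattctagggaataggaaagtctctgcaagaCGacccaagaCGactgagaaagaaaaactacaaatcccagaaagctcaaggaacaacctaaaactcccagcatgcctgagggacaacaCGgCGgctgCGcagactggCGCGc

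Htr7 has 41 CG in these bases and a GC content of 82%, and 98.9% of 32851 mouse promoters of this table have fewer CG in the same window. Rpp30 has 7 CG and a GC content of 47.6%, close to the median of 6 CG over all promoters. Kif20b has 25 CG and Ankrd1 has 7. The windows were searched on both strands for GGGCGG (the GC box), TATAAA, TGACGTCA (the cyclic AMP response element), CCAAT and CATTCC (the core of TEAD sites). These were found in 32.7%, 12.4%, 1.55%, 33.8% and 12.6% of all promoters. None of the 5 was found for Htr7, GGGCGG was found for Kif20b, CCAAT and CATTCC for Ankrd1, and CATTCC for Rpp30. A match describes letters in the window and is not a site, and methylation was not analysed here.

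The nearest gene, Rpp30, was still expressed in MD1/MD1 but had almost no paternal reads there. Its FPKM was 38.4 and 40.6 in the +/+ libraries (XistdeltaA/+ first, then Xist1lox/+) and 29.1 and 33.1 in MD1/MD1. The ratios were 0.758 and 0.814. Both MD1/MD1 values lay below both +/+ values, as they did for 18.9% of the 11471 genes. The model gave a log2 difference of -0.34 with an SE of 0.16 and an adjusted p of 0.937 from limma, so total Rpp30 did not pass the test. For scale, 4 of 11471 genes passed it, or 0.0349%, of which 2 were lower in MD1/MD1, or 0.0174%. A further measure is the unadjusted p, which was under 0.05 for 374 genes, or 3.26%.

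Both alleles of Rpp30 were read in +/+. The paternal share was 57.0% (52.7 to 61.2) of 537 reads with XistdeltaA/+ and 60.4% (56.1 to 64.5) of 550 reads with Xist1lox/+, so both intervals lay above an even split. In MD1/MD1 1 of 373 and 0 of 365 reads were paternal, the latter allowing up to 0.822%. The paternal share fell in both pairs when read counts were compared by Fisher's exact test, which compares 2 libraries and not conditions (adjusted p = 5.2e-90 and 1.7e-99). Such calls were common. In the XistdeltaA/+ pair 37.2% of 10173 genes were called, 19.9% with a lower share in MD1/MD1, and in the Xist1lox/+ pair 36.7% of 10270 were called, 15.9% with a lower share. The part of the FPKM given by maternal reads was 16.5 and 16.1 in +/+, and doubling it gives 33.0 and 32.2, beside the 29.1 and 33.1 measured in MD1/MD1. For Kif20b the same doubling gives 16.7 and 11.2, beside 9.91 and 10.7 measured. The doubling assumes 2 copies of maternal type in MD1/MD1, each read as in +/+, and this was not tested.

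Ankrd1 was expressed at a low level, and its reads were few. Its FPKM was 2.41 and 0.805 in +/+ and 1.38 and 0.376 in MD1/MD1. It was lower in MD1/MD1 within each pair, but the groups overlapped, since 1.38 in MD1/MD1 XistdeltaA/+ exceeds 0.805 in +/+ Xist1lox/+. The log2 difference by Smchd1 genotype was -0.46 with an SE of 0.27 (limma adjusted p = 0.937), and with a pseudocount of 0.1 it was -0.84. By Xist mutation it was -0.85 with an SE of 0.27, an unadjusted p of 0.0234 and an adjusted p of 0.927 from limma, where 0% of genes were called and 368, or 3.21%, had an unadjusted p under 0.05. With a pseudocount of 0.1 it was -1.55. The paternal share was 59.5% (43.3 to 74.4) of 42 reads and 50% (18.7 to 81.3) of 10 reads in +/+. In MD1/MD1 XistdeltaA/+ it was 5.56% (0.141 to 27.3) of 18 reads, and with 7 reads no share is given for MD1/MD1 Xist1lox/+. At this depth Ankrd1 could be compared only with a minimum of 10 reads. This gave an adjusted p of 0.00048 by Fisher's exact test in the XistdeltaA/+ pair, where 35.9% of 10982 genes were called. Fibroblasts are known to express Ankrd1. The summed fibroblast markers were 43.1 and 120 FPKM in the XistdeltaA/+ pair and 56.6 and 57.9 in the Xist1lox/+ pair, and their part in the values of Ankrd1 was not tested.

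Kif20b behaved like Rpp30 in its alleles and differed between the pairs in its level. With XistdeltaA/+ it had 16.2 FPKM in +/+ cells and 9.91 in MD1/MD1, and with Xist1lox/+ it had 10.8 and 10.7. The +/+ XistdeltaA/+ library stands apart, and the other 3 lie within 1 FPKM of each other. The log2 ratios were -0.66 and -0.0088, and the second turns to 0.041 with allele-assigned reads, scaled to the library total, in place of FPKM. The difference over both pairs was -0.33 with an SE of 0.22 (limma adjusted p = 0.937). The paternal share was 48.5% (45.6 to 51.4) of 1155 reads and 48.3% (44.6 to 52.0) of 733 reads in +/+. In MD1/MD1 0 of 693 and 0 of 704 reads were paternal, which allows up to 0.433% and 0.426%. The share fell in both pairs (Fisher's exact test, adjusted p = 3.3e-144 and 1.8e-127).

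Between libraries of the same Smchd1 genotype neither Kif20b nor Rpp30 differed in its paternal share. The adjusted p from Fisher's exact test was 0.541 for Rpp30 and 1 for Kif20b in +/+, where 25% of 10155 genes were called (16.4% with a lower share in Xist1lox/+), and 1 for both in MD1/MD1, where 29.1% of 10316 were called (15.6% lower in Xist1lox/+).

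The absence of paternal reads was then followed along the whole of chromosome 19. It covered a long stretch in both MD1/MD1 libraries and was not limited to Htr7. Shares were taken for the 371 genes that had 20 or more such reads in each library, and a gene was counted as having paternal reads at a share of 10% or more. In +/+ Xist1lox/+ all 371 genes had them, with a median share of 49.1%. In +/+ XistdeltaA/+ 340 genes had them, from the start of the chromosome to Itprip at 48.0 Mb, and the 31 genes from Xpnpep1 at 53.1 Mb on had a median share of 0%. In MD1/MD1 XistdeltaA/+ paternal reads ended between Tmem2 at 21.9 Mb and Klf9 at 23.2 Mb. In MD1/MD1 Xist1lox/+ they ended between Lgals12 at 7.67 Mb and Slc3a2 at 8.78 Mb.

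Each library thus had at most 1 switch, from a share near 50% to a share near 0. The genes beyond the switch had a pooled paternal share of 0.716% in MD1/MD1 XistdeltaA/+ and 0.264% in MD1/MD1 Xist1lox/+. Only 2 genes lay against the split in the first of these, Sh3pxd2a at 14.0% and Gsto1 at 19.8%, and 3 in the second, B3gat3 at 10.2%, Prune2 at 11.8% and Rbp4 at 11.5%. These 5 are named for lying outside the split, after their values were seen.

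**Figure D2:**
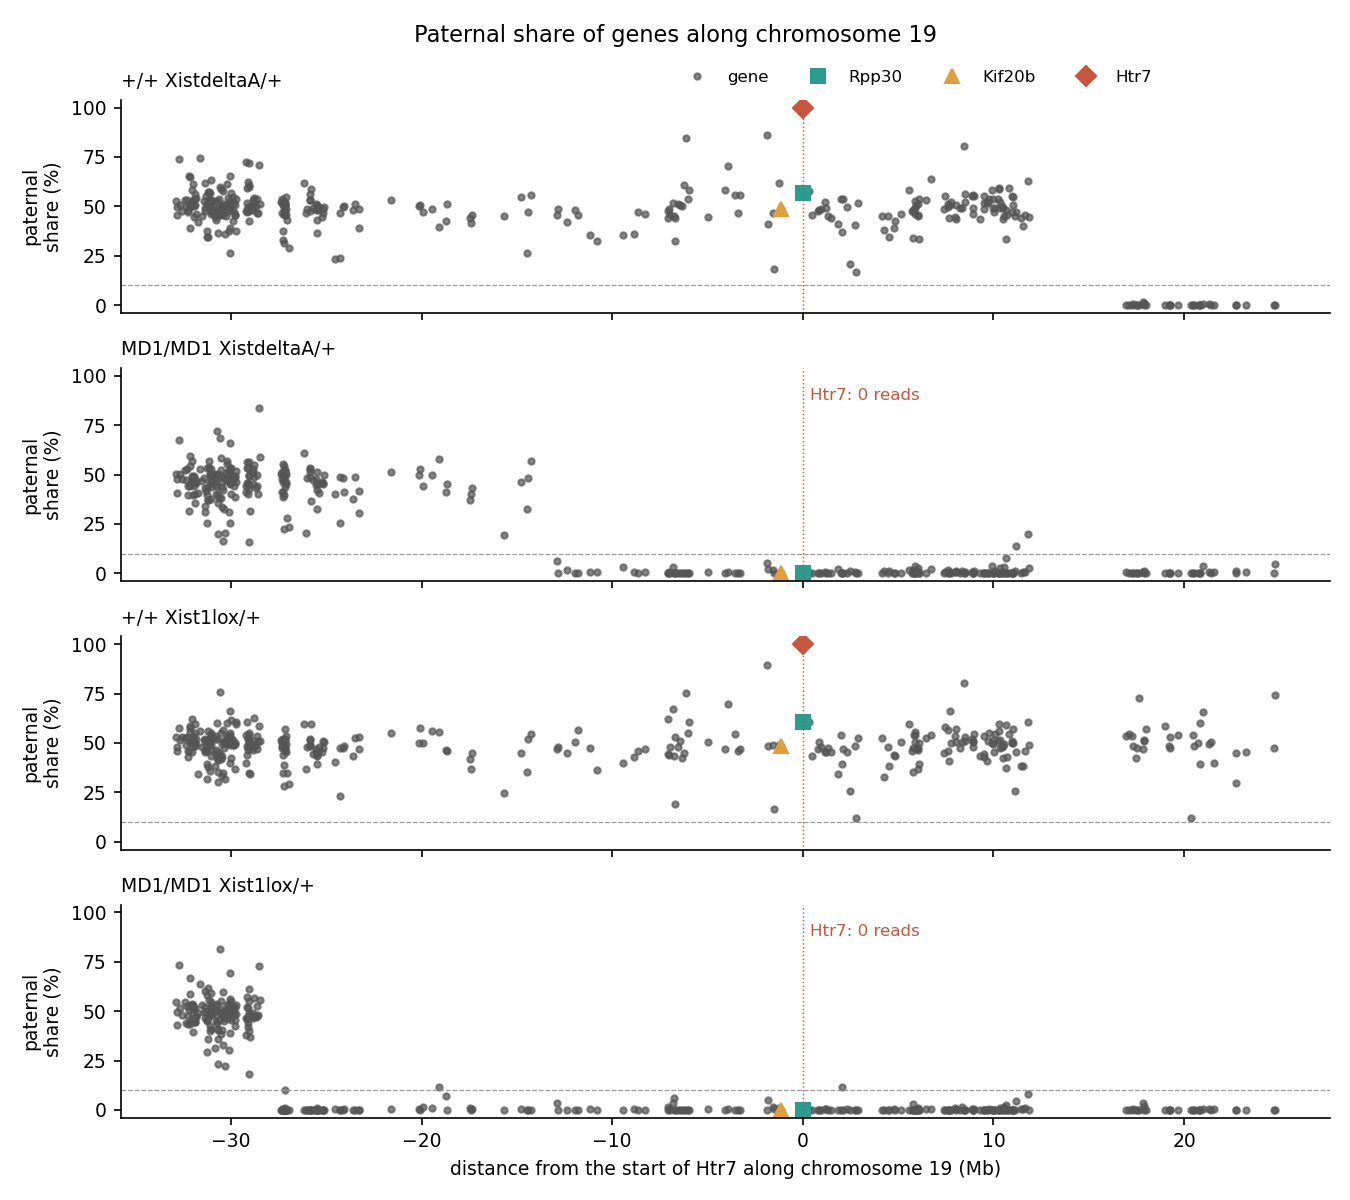
Each point is 1 of the 371 genes, with its distance from the start of Htr7 in Mb on the x axis and its paternal share in percent on the y axis, 1 panel per library; the dashed line marks 10%. Around Htr7 the genes lie near 50% in both +/+ panels and near 0% in both MD1/MD1 panels, with Htr7 itself at 100% and 99.9% in +/+.

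Htr7, Rpp30, Ankrd1 and Kif20b therefore lie in a stretch of 24.8 Mb, from Klf9 to Itprip, where both +/+ libraries had paternal reads and both MD1/MD1 libraries did not. Within it the Smchd1 genotype and the absence of the paternal variant cannot be told apart. Most genes of the stretch had similar totals in both genotypes. Of its 271 genes 141 averaged 1 FPKM or more, with median log2 ratios of -0.059 and 0.0011, beside -0.048 and 0.0040 over all 11471 genes. Htr7 was at least 2-fold lower in both pairs, which the way it was chosen sets. No other of the 141 genes was, beside 0.113% of all genes. The next lowest ratios were -1.18 for Sgms1, the sphingomyelin synthase of the Golgi, in the XistdeltaA/+ pair and -1.08 for Plgrkt, a plasminogen receptor, in the Xist1lox/+ pair. Sgms1 had -0.72 in the other pair and Plgrkt -0.70. No gene of the stretch was at least 2-fold higher in both pairs, where 0.131% of all genes were.

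The 20 genes nearest to Htr7, 10 on each side, gave the same picture for the alleles. With at least 20 reads in both libraries of a pair, 18 of them could be compared. The paternal share fell in 18 of 18 in each Smchd1 pair by Fisher's exact test, beside 19.9% and 15.9% of all genes compared. All lie in the stretch from Klf9 to Itprip, already seen to lack paternal reads in MD1/MD1. These calls are therefore linked, and their count describes that stretch and is no separate support. Over these neighbours the pooled share was 49.8% of 23765 reads and 49.3% of 19622 reads in +/+, and 0.217% of 22143 and 0.182% of 20921 in MD1/MD1. Within +/+ the paternal share of single neighbours ranged from 18.3% to 86.2% with XistdeltaA/+ and from 15% to 89.4% with Xist1lox/+, so none matched the 100% and 99.9% of Htr7.

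In total expression 0 of the 20 neighbours passed the model at an adjusted p under 0.05 (limma, lowest adjusted p = 0.937), and 2, Sgms1 and Pcgf5, had an unadjusted p under 0.05. The MD1/MD1 values lay below both +/+ values for 8 of the 20, beside 18.9% of all genes, and above them for 2, beside 13.8%. Pcgf5, a subunit of a Polycomb repressive complex, had 15.6 and 13.8 FPKM in +/+ cells, then 9.45 and 9.17 in MD1/MD1 cells, with paternal shares of 57.5% and 60.8% in +/+. Btaf1, a regulator of the TATA-binding protein, went the other way, at 8.49 and 8.91 in +/+ and 12.2 and 11.2 in MD1/MD1. Its paternal shares in +/+ were 48.3% and 50.7%. Tnks2, a tankyrase and the highest of these genes, had 90.7 and 60.4 FPKM in +/+ and 81.1 and 74.0 in MD1/MD1, and its groups overlapped. Kif11, another mitotic kinesin, had 40.5 and 34.7 FPKM in +/+ cells, and 34.6 and 39.6 in MD1/MD1 cells.

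**Figure D3:**
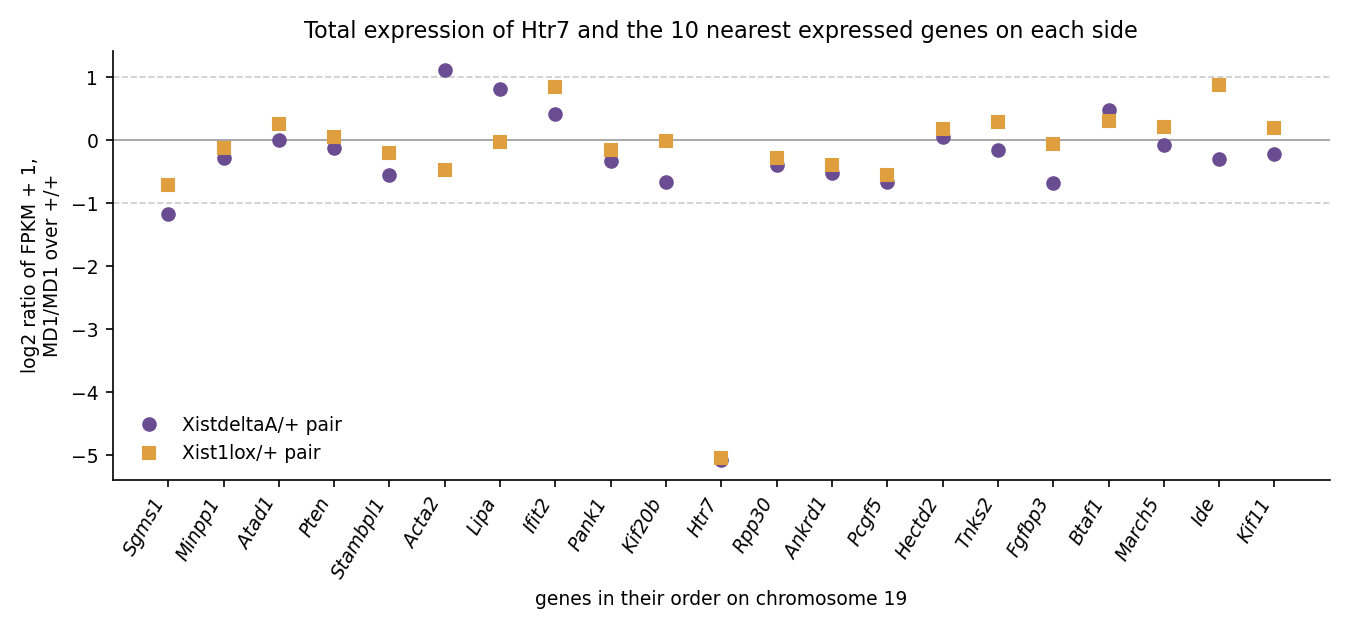
Log2 ratios of FPKM + 1, MD1/MD1 over +/+, for Htr7 and the 10 nearest genes on each side averaging 1 FPKM or more, in their order on the chromosome; circles are the XistdeltaA/+ pair, squares the Xist1lox/+ pair and dashed lines 2-fold. Htr7 lies at -5.08 and -5.05, and the neighbours lie between -1.18 and 1.11.

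Few genes of the stretch were read mainly from 1 allele in +/+. Of 130 genes with at least 20 reads in both +/+ libraries, 97 had shares from 40% to 60% in both. Shares of 75% or more in both were found for 3 genes, of which 1, Htr7, reached 95%. Shares of 25% or less were found for 2 genes. With wider limits, 5 genes had shares of 60% or more in both. Their totals had lower values in MD1/MD1 in both pairs for 4 and mixed signs for 1. The 4 include Htr7, which was picked for being missing in MD1/MD1. Shares of 40% or less were found for 13 genes, with higher values in both pairs for 7, lower for 2 and mixed signs for 4. Of all genes 55.0% were lower in the XistdeltaA/+ pair and 49.2% in the Xist1lox/+ pair. The share lower or higher in both pairs was not counted over all genes, so these counts are a description. The other 4 genes past 75% or 25% are named for these shares, after their values were seen. Il33, a cytokine gene, had 84.7% and 75.5% paternal reads in +/+, and its FPKM was 4.34 and 3.84 in +/+ and 2.11 and 1.45 in MD1/MD1. Stambpl1, a deubiquitinase gene, had 86.2% and 89.4%, and its FPKM was 3.42 and 2.28 in +/+ and 2.03 and 1.83 in MD1/MD1. The MD1/MD1 value was below its partner in each pair for both.

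The 2 genes with shares of 25% or less were Ifit2 and Tbc1d12. Ifit2, an interferon-induced gene, had paternal shares of 18.3% and 16.3% in +/+, and its FPKM was 1.29 and 0.903 in +/+ and 2.04 and 2.43 in MD1/MD1. Tbc1d12, which encodes a protein with a Rab GTPase-activating domain, had 16.7% and 11.9%, and its FPKM was 4.14 and 3.96 in +/+ and 6.52 and 7.55 in MD1/MD1. None of these 4 genes was picked before its values were seen, so their differences carry no test.

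Across genes of the stretch the allelic balance in +/+ was set against the ratio of totals. The balance was taken from the +/+ library of the other Xist background, so that both measures share no library. Over 133 genes Pearson's r was -0.67 for the XistdeltaA/+ pair and -0.83 for the Xist1lox/+ pair. These genes include Htr7, which was picked for its values in both measures, so its place was set by that choice. Without Htr7 r was -0.34 and -0.48, and Spearman's rho was -0.31 and -0.33, so the size of r rests largely on Htr7. At the start of the chromosome, between 3.26 and 7.68 Mb, all 4 libraries had paternal reads, and the same r was -0.23 over 134 genes and -0.064 over 133. Genes are not independent replicates, and the difference between these stretches was not tested.

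**Figure D4:**
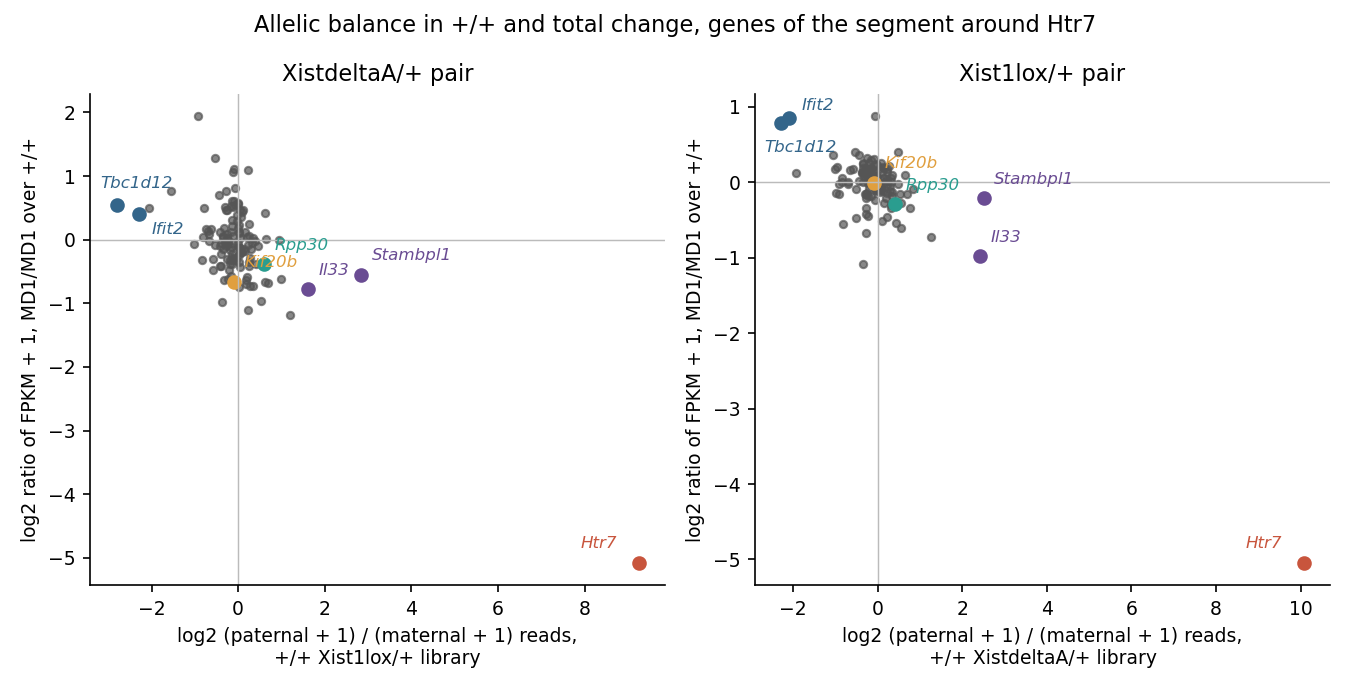
Each point is 1 of the 130 genes of the stretch around Htr7 with at least 20 reads in both +/+ libraries; the x axis is the log2 ratio of paternal to maternal reads (1 added to each) in the +/+ library of the other Xist background and the y axis the log2 ratio of FPKM + 1, MD1/MD1 over +/+. Htr7 lies far to the lower right in both panels, Il33 and Stambpl1 lie to the right and below 0, and Ifit2 and Tbc1d12 lie to the left and above 0.

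Among autosomal genes of the series, reads that were almost only paternal were rare. Of 9273 genes with at least 20 reads in both +/+ libraries, 15 (0.162%) had shares of 95% or more in both. Htr7 was the 1 of these 15 with 0 allele-assigned reads in both MD1/MD1 libraries and the 1 that was at least 2-fold lower in both pairs, which the way it was chosen sets. Nnat, a gene known to be imprinted and paternally expressed and named here for comparison, had 100% paternal reads in all 4 libraries and 26.6, 22.7, 39.6 and 26.2 FPKM in the order +/+ and MD1/MD1 with XistdeltaA/+, then with Xist1lox/+. Whether Htr7 is imprinted was not tested. Of the 12 genes with a share given in both MD1/MD1 libraries, 9 were still at 95% or more in both.

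The 5 genes whose centred log2(FPKM + 1) profile over the 4 libraries was most like that of Htr7 were Rpl10a, Rps28, Ly6g6c, Trap1a and Smchd1. Their root mean square distances to Htr7 were 0.109, 1.09, 1.46, 1.64 and 1.66, beside a median of 2.52 over all genes tested. None lies on chromosome 19: 4 are on chromosome 17, which holds Smchd1, and Trap1a is on the X chromosome. The paternal share of Ly6g6c was 80.6% of 31 reads and 96.3% of 27 in +/+, with 0 and 5 reads in MD1/MD1. Smchd1 had shares of 51.2% and 52.4% in +/+, then 0% and 0.532% in MD1/MD1. Trap1a had 3.95% and 3.14% in +/+, then 17.0% and 2.44%. For Rpl10a and Rps28 no share is given in +/+. Rpl10a and Rps28 encode ribosomal proteins, families with many near-identical copies, which makes their levels uncertain. A profile over 4 libraries carries little information, and likeness is a description only.

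Other serotonin receptors gave no counterpart to Htr7. Of 13 further receptor genes only Htr3a averaged 1 FPKM or more, and 2 were listed at 0 in all 4 libraries. Htr3a, which encodes a subunit of an ion channel and not a G protein-coupled receptor, had 6.54 and 5.24 FPKM in the XistdeltaA/+ pair and 5.18 and 6.63 in the other (limma adjusted p = 0.998). Of 8 genes of serotonin synthesis and handling 1 was tested, Maoa, a monoamine oxidase that degrades serotonin, at 18.2 and 17.4 and at 18.3 and 20.03 FPKM. Tph1, the enzyme that starts serotonin synthesis outside the brain, had a mean FPKM of 0.570 and was below the filter. The 5 neuron markers included 4 tested genes and 0 calls. Tubb3 had 15.3 to 36.4 FPKM, Elavl3 5.79 to 9.75, Snap25 5.55 to 8.18 and Map2 1.56 to 2.03. Syt1, a synaptic vesicle gene, had 0.312 to 0.507 and was below the filter.

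Genes that act below the receptor were expressed, and 0 differed by the test. Of 23 cyclic AMP pathway genes 17 were tested and 0 passed (limma, 2 with an unadjusted p under 0.05), with median log2 ratios of -0.23 and -0.0047. Gnas, the stimulatory G protein subunit and an imprinted gene, was the highest. It had 1427 and 919 FPKM in the XistdeltaA/+ pair and 1272 and 967 in the other (log2 ratios -0.63 and -0.40, limma adjusted p = 0.937). Its MD1/MD1 values lay below both +/+ values, as they did for 18.9% of all genes. Prkaca, a catalytic subunit of protein kinase A, had 45.4 and 41.0, then 46.6 and 43.5. Prkar1a, a regulatory subunit, had 45.1 and 47.2, then 43.9 and 43.7.

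The lists of the neighbours likewise held 0 calls with limma. All 10 further subunits of RNase P and MRP were tested, with median log2 ratios of 0.40 and -0.016 and 0 genes at an unadjusted p under 0.05. Pop4 had 43.7 and 65.3 FPKM in the XistdeltaA/+ pair, then 74.3 and 68.2, and Rpp21 had 37.9 and 53.6, then 61.5 and 58.2. Both ratios of Rpp30 were negative, -0.39 and -0.29, as were those of Rpp25l, -0.18 and -0.034, and of Pop7, -0.087 and -0.18. The remaining subunits had mixed or positive signs. Of 10 YAP and TEAD targets 0 passed and 3 had an unadjusted p under 0.05, with medians of 0.046 and 0.31. Cyr61, a secreted matrix protein, had 281 and 428 FPKM in the XistdeltaA/+ pair, then 340 and 486. Amotl2 had 70.4 and 113, then 59.95 and 86.1. Both had higher values in MD1/MD1 within each pair, where those of Ankrd1 were lower. Other targets varied. Ajuba had log2 ratios of -0.0077 and 0.27, and Ctgf had -0.18 and 0.87. Crim1 was lower in both pairs, at -0.031 and -0.18. Ankrd23, a relative of Ankrd1, had 1.498 to 1.69 FPKM.

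The mitotic kinesins differed between the pairs in how they compared with Kif20b. All 13 had lower values in MD1/MD1 than in +/+ with XistdeltaA/+, as 55.0% of all genes did, and 3 of 13 with Xist1lox/+, beside 49.2%. Their median log2 ratios were -0.51 and 0.11, beside -0.66 and -0.0088 for Kif20b, and 0 passed limma at either level of p. Kif2c, a microtubule depolymerase, had 69.6 and 34.8 FPKM in the XistdeltaA/+ pair, then 48.4 and 46.8, and Kif22, a chromosome-binding kinesin, had 84.3 and 64.8, then 87.98 and 78.3. Kif20a, a relative of Kif20b, had 85.4 and 57.5, then 65.1 and 70.4, and Kifc1, a minus-end motor, had 48.3 and 28.3, then 35.1 and 41.5. The last 2 thus had higher MD1/MD1 values in the Xist1lox/+ pair. The summed fibroblast and macrophage markers were higher in the same MD1/MD1 XistdeltaA/+ library, and their part in the lower kinesin values was not tested. Among the fibroblast markers Postn went the other way, at 2.03 FPKM in +/+ and 1.54 in MD1/MD1.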

How the data were processed

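Stranded mRNA libraries came from total RNA (per the labels' protocols) of 4 EpiSC samples. As tools, mm9, Cufflinks 2.2.1 and Cuffdiff stand in the submitters' processing notes, with no role. The aligner, variants and annotation were not given in the sources used here. Per the file headers, the authors deposited 3 values per gene and library: the count of allele-assigned reads, the fraction of them that is paternal, and FPKM. A share is given for genes with at least 10 reads, apart from 3 genes per library. Share times reads was whole for 100% of values (within 1e-06). A further 6 per-sample columns belong to no sample of the series and were not used.

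Starts were raised by 1, so coordinates count from 1 in mm9. Gene totals, as log2(FPKM + 1), were kept where the mean FPKM reached 1. The model of Smchd1 genotype plus Xist mutation was run in limma 3.58.1 with a trended prior, with 1 residual degree of freedom. Paternal and maternal reads were compared by Fisher's exact test (two-sided, scipy 1.17.1) for genes with at least 20 reads in both libraries. p-values were adjusted after Benjamini and Hochberg over all genes of a test and called under 0.05. edgeR 4.0.16 on the deposited read counts was added after the data were seen. Promoter sequences are from RefSeq (GRCm38.p6), with 4 of 4 genes matched by symbol. No coordinates were converted between builds.

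The genes and lists were chosen with earlier results of these data known. Named genes are the 4 genes, the 10 nearest on each side with a mean FPKM of at least 1, the 5 nearest in profile and, of each list, up to 4 of the highest expressed. Marker genes, genes at the ends of stretches, Plgrkt, Nnat, Crim1, Pop7 and Tph1 fall outside this rule and were named after their values were seen. Alternatives covered the pseudocount, filters, scaling, model terms, read minimums and the share that counts as paternal.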

Additional observations from a re-analysis of the deposited data

Results flagged for a closer look

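Among the 20 nearest neighbours of Htr7, 8 had log2 ratios of opposite sign in both Xist backgrounds, and 2 of these differed by at least 1 on the log2 scale. Acta2, the smooth muscle actin gene and one of the fibroblast markers, had log2 ratios of MD1/MD1 over +/+ of 1.11 with XistdeltaA/+ and -0.47 with Xist1lox/+. Ide, which encodes the insulin-degrading enzyme, had -0.30 and 0.88. Each ratio rests on 1 library against 1, and the difference between backgrounds was not tested.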

How the results depend on the processing

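With limma 4 genes differed by Smchd1 genotype, 2 higher and 2 lower, and the count was 0 without a filter on low values (943 at an unadjusted p under 0.05), where 22686 genes were tested. Under the other alternatives it lay between 3 and 6, with 5 for edgeR. For the Xist mutation limma and edgeR called 0 genes in each fit, with 304 to 1017 at an unadjusted p under 0.05. Rpp30, Ankrd1 and Kif20b passed in none of these fits. The log2 ratios of Htr7 were -8.36 and -8.11 with a pseudocount of 0.1, so their size is set by the pseudocount, and the ratio of Rpp30 with Xist1lox/+ was -0.49 with reads in place of FPKM. The differences of Ankrd1 were -0.84 (Smchd1) and -1.55 (Xist) with that pseudocount and -0.88 and -1.67 with edgeR, and passed in neither. Of 108 values under alternatives, signs were compared only for the log2 differences and log2 ratios of genes, not for counts and shares. Among those compared 2 changed sign, both near 0: Kif20b with Xist1lox/+ (0.041 with reads) and Htr7 by Xist mutation (-0.0046 after quantile normalization). Counts of genes whose share differed stayed within 1.5 times with minimums of 10 and 50 reads, as did the chromosome 19 counts at shares of 5% and 20%. Ankrd1, with 7 to 42 allele-assigned reads, is limited by depth. Leaving out a library leaves 0 residual degrees of freedom and was not run. Replicates could not be paired because the labels carry no replicate numbers. The model does hold Xist mutation as a term, and 6 genes differed by Smchd1 genotype without that term.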
